A study of Homo sapiens with 18 samples.

Results

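The heat shock genes described here, 10 in number, were followed through YAP1 knockdown in mesothelioma xenografts: HSPA1A, HSPA1B, HSPA8, HSPH1, DNAJB1, HSPB1, HSP90AA1, BAG3, HSPE1 and HSPD1. They were chosen by symbol, and all 10 were found among the 20555 rows of the expression table. The study asked how tumors respond when a short hairpin RNA against YAP1, a transcriptional coactivator of the Hippo pathway, is switched on by doxycycline. MSTO-211H, a human malignant pleural mesothelioma line carrying the inducible hairpin (MSTO-211H [sh-YAP1]), was grown under the skin of SCID mice, which lack functional B and T lymphocytes but keep macrophages, fibroblasts and vessels of the mouse. RNA was measured after exome capture in 18 tumors, 1 per mouse.

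The groups were 0h (5 tumors taken at about 300 mm3 under 5% glucose in the drinking water, before any doxycycline), 24h (4 tumors), 96h (5 tumors) and 216h (4 tumors), the last 3 given 0.5 mg/ml doxycycline with the 5% glucose. No group received doxycycline without the hairpin. Each time point was its own cage group, so cage and time cannot be told apart, and all tumors came from 1 engineered line. The study's text describes the last time point as a period on doxycycline followed by a period without it, whereas the labels give 216h of doxycycline. This was not settled here, and the group is called 216h. YAP1 itself averaged 7.26 ± 1.96 FPKM (SD, n = 5) at 0h, 5.81 ± 1.61 (n = 4) at 24h, 4.77 ± 1.41 (n = 5) at 96h and 7.18 ± 1.45 (n = 4) at 216h, and none of these differences passed the test (limma adjusted p = 0.221 for 96h against 0h).

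Cells answer heat and other protein-damaging stress through HSF1, a transcription factor that is held inactive by chaperones and binds heat shock elements in DNA once they are occupied elsewhere. HSP70 proteins bind exposed hydrophobic stretches of clients in cycles of ATP hydrolysis, which J-domain proteins such as DNAJB1 start and nucleotide exchange factors such as BAG3 and HSPH1 end. HSP90 proteins finish the folding of kinases and receptors, and small heat shock proteins hold unfolded proteins without ATP. Of the 10 genes 8 encode proteins of the cytosol and nucleus. HSPD1 and HSPE1 encode the HSP60 barrel and HSP10 lid of the chaperonin in the mitochondrial matrix, so the label "cytosolic" does not cover that pair.

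A heat shock element is built of GAA units in alternating orientation, each spaced from the next by 2 bases. The 250 bases before each transcript start were searched in RefSeq (GRCh38.p14) for the pairs GAANNTTC and TTCNNGAA and for the triplets GAANNTTCNNGAA and TTCNNGAANNTTC, which read the same unit on both strands and overlap the pairs. All 10 genes matched an entry. A triplet stood in the window of 3 of them, HSPA8, HSP90AA1 and HSPD1, compared with 0.557% of the 27305 genes searched, and a pair in 7 of them, compared with 14.0% of all genes. The windows of HSPA1A and HSPA1B, both among the 7, were 94.4% identical over 249 bases and are not independent matches. The matching stretches of 7 genes follow because they are letters that most of the group has in common, with the GAA and TTC units of each match in capitals and each sequence written 5′ to 3′ on the strand of its gene.
HSPA8, upper site (chr11:123062342-123062378, minus strand): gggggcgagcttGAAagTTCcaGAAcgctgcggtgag
HSPA8, lower site (chr11:123062167-123062203, minus strand): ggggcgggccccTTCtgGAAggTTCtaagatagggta
HSP90AA1 (chr14:102087093-102087144, minus strand): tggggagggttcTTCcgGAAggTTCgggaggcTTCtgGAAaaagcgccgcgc
HSPD1 (chr2:197500056-197500090, minus strand): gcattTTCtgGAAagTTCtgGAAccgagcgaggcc
DNAJB1 (chr19:14518425-14518486, minus strand): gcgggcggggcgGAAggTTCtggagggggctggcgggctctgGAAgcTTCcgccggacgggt
HSPB1 (chr7:76302479-76302510, plus strand): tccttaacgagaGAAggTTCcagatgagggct
HSPA1A (chr6:31815425-31815456, plus strand): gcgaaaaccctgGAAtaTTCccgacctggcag
HSPA1B (chr6:31827621-31827652, plus strand): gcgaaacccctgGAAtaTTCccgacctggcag
In HSPD1 the units ran on without a break and gave 2 overlapping triplets, 245 to 228 bases before the second of its listed starts. In HSP90AA1 a triplet and a further pair lay within 88 to 61 bases before the second of its listed starts. The windows of BAG3, HSPH1 and HSPE1 held none of these letters, which says nothing of sites elsewhere. The HSPD1 site (chr2:197500056-197500090) lies just before the HSPE1 window, which begins at 197500129 for a start at 197500379. It also lies within the HSPE1 row, which begins at 197499994. The window of the first listed HSPD1 start (197500274) held no pair. The site can therefore not be assigned to HSPD1 rather than HSPE1. These are matches of letters. No binding was measured.

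Levels are given in FPKM, fragments scaled to transcript length and to the mapped fragments of the library, and genes are ranked by these values. Exome capture and reads that match several genes may also affect the order, and their effect was not measured. HSPA8 had the highest value of the 10 in all 18 tumors, with a mean of 557 FPKM over the tumors, followed by HSP90AA1 (219 FPKM), HSPB1 (197 FPKM), HSPE1 (103 FPKM), HSPD1 (54.8 FPKM), HSPH1 (20.6 FPKM), DNAJB1 (12.5 FPKM) and BAG3 (9.88 FPKM). The order was fixed in all 18 tumors between most neighbours. The exceptions were HSP90AA1 and HSPB1, in this order in 13 tumors, DNAJB1 and BAG3, in this order in 16 tumors, and the pair of HSPA1 genes. HSP90AA1 exceeded HSPB1 in all 5 tumors at 0h and all 4 at 24h, but in 2 of 5 at 96h and 2 of 4 at 216h. HSPA8 alone made up 42.4% of the summed FPKM of the 10 genes at 0h and 51.6% at 216h, while the share of HSP90AA1 was 20.5% at 0h and 16.1% at 216h. Fewer cells of a type and less RNA per cell cannot be told apart in such bulk tumors.

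**Figure D1:**
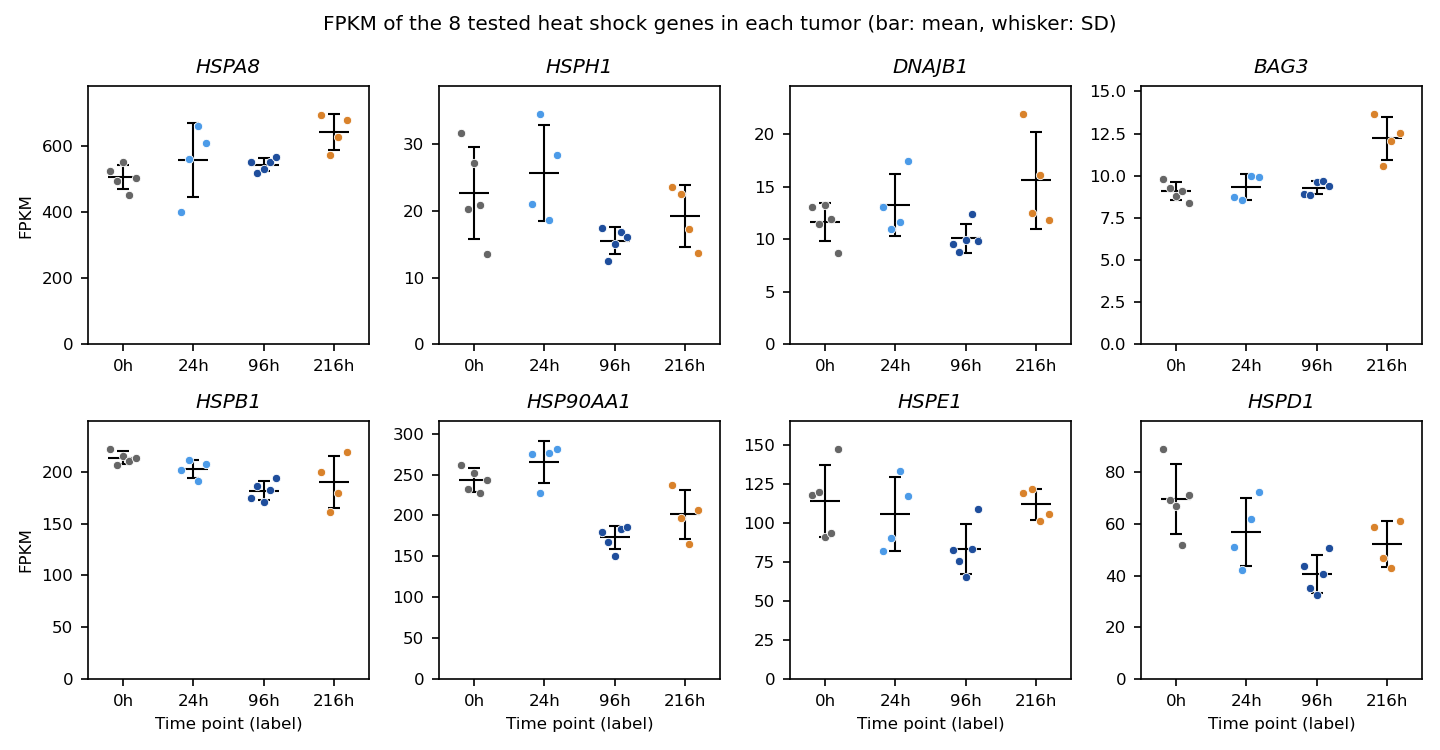
Each panel plots the FPKM (linear axis from 0) of 1 gene in the 18 tumors, grouped by time point label, with the mean as a bar and the SD as a whisker. The 5 HSP90AA1 points at 96h lie between 151 and 185 FPKM, below all 5 points at 0h (227 to 262 FPKM), and the 4 BAG3 points at 216h (10.6 to 13.7 FPKM) lie above all other tumors.

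The stress-inducible HSP70 genes were nearly silent in this table. HSPA1A (ENSG00000204389.9, chr6:31815464-31817946, plus strand) was listed at 0 in 6 of 18 tumors and reached 0.128 FPKM at most, in 216h replicate 1. HSPA1B (ENSG00000204388.6, chr6:31827735-31830255, plus strand) was listed at 0 in all 18 tumors. Neither entered the test, which required 1 FPKM in at least 4 tumors. Both encode nearly the same protein, and 73.6% of the 31-base stretches in HSPA1A transcripts occur in HSPA1B transcripts too, so reads that match both could have been dropped or split. How the authors counted such reads is not given in the sources used here. Over the genes of all lists used here, 5 of the 8 with at least 50% of their stretches shared with other genes averaged under 1 FPKM, compared with 30 of the 196 below that share. These 5 include HSPA1A and HSPA1B themselves. CD68, TTC4 and DPT, also past 50%, averaged above 1 FPKM, with CD68 (81.25% shared) at 20.5 FPKM. The count can therefore not show that sharing lowered the values of HSPA1A and HSPA1B. Since most of their stretches are shared and the counting is unknown, their level cannot be read from these values.

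HSPA8 (ENSG00000109971.13, chr11:123057489-123062669, minus strand), the constitutive HSP70 of the cytosol, was higher at 216h. It measured 522, 493, 550.3, 452 and 503 FPKM in the 5 tumors at 0h and 399, 559, 660.2 and 609 FPKM at 24h. At 96h the tumors had 549, 517, 528, 551 and 565 FPKM, and at 216h they had 692, 572, 624 and 678 FPKM. All 4 tumors at 216h lay above all 5 at 0h and all 5 at 96h, whereas the tumors at 24h were spread over nearly the whole range. The log2 difference of FPKM + 1 between 216h and 0h was 0.35 ± 0.11 (SE), a rise that passed the test (limma adjusted p = 0.0291). It exceeded the median of all genes by 0.18. The difference of 216h against 96h was 0.24 and did not pass (adjusted p = 0.171). The rise against 0h no longer passed when 0h replicate 4 or 216h replicate 1, 3 or 4 was left out (adjusted p up to 0.0790), or under 5 of 11 other settings. Among these were median scaling (0.08, adjusted p = 0.632), rescaling without the mitochondrially encoded genes (0.23, adjusted p = 0.130) and the number of genes at 0 as a covariate (0.21, adjusted p = 0.0621).

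Among the HSP70 partners, BAG3 (ENSG00000151929.9, chr10:119651370-119677819, plus strand), which couples HSP70 to selective autophagy, changed at 216h. Its tumors had 9.81, 9.27, 8.80, 9.08 and 8.40 FPKM at 0h, then 8.75, 8.56, 9.99 and 9.94 FPKM at 24h. They had 8.89, 8.85, 9.63, 9.70 and 9.39 FPKM at 96h and 13.7, 10.6, 12.1 and 12.5 FPKM at 216h. The first 3 groups overlapped, and every tumor at 216h was above every other tumor. BAG3 rose by 34.6% in mean FPKM against 0h (log2 difference 0.39 ± 0.09, SE; limma adjusted p = 0.00537) and by 31.4% against 96h (0.36 ± 0.09; adjusted p = 0.0181). These are differences before any account of the shift of all genes described below, and relative to that shift they were 0.22 and 0.20. The rise against 0h passed in all 18 fits that left out 1 tumor, and the rise against 96h in all but the fit without 216h replicate 1 (adjusted p = 0.0576). Median scaling (0.15, adjusted p = 0.312), quantile normalization (0.18, adjusted p = 0.209) and a fit of only the tumors above the gap in zero counts described below (0.34, adjusted p = 0.0941) each ended the call against 0h.

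DNAJB1 (ENSG00000132002.7, chr19:14514770-14529322, minus strand), the J-domain protein that pairs with inducible HSP70 in disaggregation, varied more between tumors of a group. It measured 13.0, 11.5, 13.3, 11.9 and 8.72 FPKM at 0h and 13.0, 11.0, 11.6 and 17.4 FPKM at 24h. The 96h tumors had 9.56, 8.76, 9.88, 12.4 and 9.80 FPKM, and the 216h tumors 22.0, 12.5, 16.1 and 11.8 FPKM. At 216h 3 of 4 tumors were above all 5 at 96h and the groups overlapped. The difference of 0.55 ± 0.17 (SE) between 216h and 96h passed the test (limma adjusted p = 0.0455), but in only 8 of the 18 fits that left out 1 tumor. It was lost without 0h replicate 1, 2 or 4, 24h replicate 3, 96h replicate 1, 2, 3 or 5, or 216h replicate 3, and most of all without 216h replicate 1, the tumor with 22.0 FPKM (difference 0.38, adjusted p = 0.142). Its row overlaps TECR on the other strand, a gene of 9.40 to 20.2 FPKM.

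HSPH1 (ENSG00000120694.19, chr13:31134974-31162388, minus strand) encodes HSP105, an exchange factor and disaggregase partner of HSP70. Its tumors had 31.6, 20.3, 27.1, 20.8 and 13.5 FPKM at 0h, 21.1, 34.5, 18.6 and 28.3 FPKM at 24h, 17.4, 12.4, 15.0, 16.8 and 16.1 FPKM at 96h, and 23.5, 22.5, 17.2 and 13.6 FPKM at 216h. All 5 values at 96h lay below all 4 at 24h, yet neither this difference of −0.66 ± 0.22 (SE; limma adjusted p = 0.338) nor that of −0.47 ± 0.21 against 0h (adjusted p = 0.328) passed the test.

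HSP90AA1 (ENSG00000080824.18, chr14:102080738-102139686, minus strand), the stress-responsive cytosolic HSP90, was lower from 96h on. Its values were 262, 232, 252, 227 and 244 FPKM at 0h and 275, 228, 276 and 282 FPKM at 24h. At 96h they were 179, 168, 151, 183 and 185 FPKM, and at 216h 238, 196, 165 and 207 FPKM. No tumor at 96h reached the lowest tumor at 0h or at 24h, and 3 of 4 tumors at 216h lay below all 5 at 0h. Mean FPKM fell by 28.8% from 0h to 96h (log2 difference −0.49 ± 0.09, SE, 95% interval −0.68 to −0.29; limma adjusted p = 0.0110). The differences of −0.61 ± 0.10 for 96h against 24h (adjusted p = 0.0221) and of −0.28 ± 0.10 for 216h against 0h (adjusted p = 0.0464) also passed. The fall from 0h to 96h stayed past the threshold in all 18 fits that left out 1 tumor and under the other filters, scalings, pseudocount and models tried, with adjusted p up to 0.0497. That against 24h was lost without 24h replicate 1, 3 or 4 or 96h replicate 1, 2, 3 or 5 (adjusted p up to 0.117). That at 216h passed in only 6 of the 18 fits: it was lost without 0h replicate 1, 2, 3 or 5, 24h replicate 3, 96h replicate 1, 2, 4 or 5, or 216h replicate 2, 3 or 4 (adjusted p up to 0.182). The row overlaps WDR20 (3.54 to 10.0 FPKM).

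HSP90AB1, the constitutive cytosolic HSP90 encoded by another gene and picked for this comparison after its values had been seen, averaged 57.4 ± 3.08 FPKM (SD, n = 5) at 0h, 54.0 ± 6.47 (n = 5) at 96h and 63.3 ± 2.86 (n = 4) at 216h. Its log2 difference between 96h and 0h was −0.09, with a 95% interval from −0.27 to 0.09 and a limma adjusted p of 0.705. The difference between the responses of HSP90AA1 and HSP90AB1 was not tested.

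HSPB1 (ENSG00000106211.8, chr7:76302544-76304295, plus strand), the small heat shock protein HSP27, had the smallest SD relative to its mean at 0h among the 8 tested genes, with 223, 207, 215, 210.3 and 214 FPKM. It measured 202, 212, 191 and 207 FPKM at 24h, 175, 187, 171, 183 and 194 FPKM at 96h, and 199.8, 161, 180.0 and 219 FPKM at 216h. All 5 tumors at 96h were below all 5 at 0h. The difference of −0.23 ± 0.07 (SE) did not pass the test (limma adjusted p = 0.150), nor did that of −0.18 at 216h (adjusted p = 0.113). When values were scaled to the sample median the difference at 216h was −0.44 (adjusted p = 0.00201), and without the mitochondrially encoded genes it was −0.30 (adjusted p = 0.0129).

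The genes of the mitochondrial chaperonin were lowest at 96h. HSPD1 (ENSG00000144381.16, chr2:197486581-197500274, minus strand) had 89.1, 69.2, 66.7, 51.6 and 71.2 FPKM at 0h, 51.0, 42.3, 61.8 and 72.2 FPKM at 24h, 43.9, 35.3, 32.3, 40.7 and 50.6 FPKM at 96h and 58.7, 46.7, 42.9 and 61.1 FPKM at 216h. The 96h tumors all lay below the 0h tumors. Mean HSPD1 fell by 41.7% from 0h to 96h (log2 difference −0.76 ± 0.16, SE, 95% interval −1.10 to −0.42; limma adjusted p = 0.0235), the largest change of the 8 tested genes in that comparison. The call was lost without 0h replicate 1 or 5 or 96h replicate 2, 3 or 4 (adjusted p up to 0.0829). At 216h against 0h HSPD1 differed by −0.40 and did not pass (adjusted p = 0.104). That difference passed with quantile normalization (−0.51, adjusted p = 0.0427), median scaling (−0.65, adjusted p = 0.0126), rescaling without the mitochondrially encoded genes (−0.52, adjusted p = 0.0338) and the number of genes at 0 as a covariate (−0.55, adjusted p = 0.0175).

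HSPE1 (ENSG00000115541.10, chr2:197499994-197503457, plus strand) had 118, 119.6, 91.4, 93.5 and 148 FPKM at 0h, 82.4, 90.6, 133 and 117 FPKM at 24h, 82.6, 75.5, 65.3, 83.6 and 109 FPKM at 96h and 119, 122, 102 and 106 FPKM at 216h. In 4 of 5 tumors at 96h it was below all tumors at 0h, but the difference of −0.45 ± 0.15 (SE) did not pass (limma adjusted p = 0.18). HSPD1 and HSPE1 are neighbours in opposite orientation whose annotated transcripts overlap, and a read-through gene, HSPE1-MOB4, covers HSPE1 and was listed at 2.31 FPKM at most. Of the 31-base stretches of HSPE1 transcripts, 12.2% also occur in HSPD1 transcripts or in their reverse complement. The share with any other gene, again on either strand, was 31.3% for HSPD1, 27.2% for HSPE1 and 21.5% for HSPA8, and HSP90AA1 lay between HSPE1 and HSPD1. It was 11.9% for DNAJB1, 11.2% for HSPB1, 0.223% for HSPH1 and 0% for BAG3. The effect of such shared reads on the levels and calls of the 8 tested genes was not measured.

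Counted by comparison, 0 of the 8 tested genes passed at 24h against 0h by limma's adjusted p, and 0 had an unadjusted p under 0.05. Of all 11379 genes tested, 0.00879% were called higher and 0.149% lower in that comparison. At 96h against 0h, 2 of 8 were lower (HSP90AA1 and HSPD1) and none higher, with 5 of 8 lower at an unadjusted p under 0.05. Over all genes 1.06% were called lower and 0.316% higher by adjusted p. The share of all genes at the unadjusted threshold was not computed, so the 5 of 8 has no background beside it. At 96h against 24h, 1 of 8 was lower (HSP90AA1), 1 of only 5 genes called in the whole table (0.0439% lower, 0% higher), and all 8 estimates were below 0. Over all genes 61.3% of the estimates were above 0 in that comparison.

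At 216h against 0h, 2 of 8 were higher (HSPA8 and BAG3) and 1 lower (HSP90AA1), while 19.7% of all genes were called higher and 3.6% lower. The 2 rises among 8 genes are thus near the background share. After median scaling HSP90AA1 stayed called and the other calls were of other genes. None of the 8 was higher, and HSPB1, HSP90AA1 (adjusted p = 0.00347) and HSPD1 (adjusted p = 0.0126) were lower. With that scaling 992 of all 11379 genes were called higher and 1274 lower. At 216h against 96h, 2 of 8 were higher (DNAJB1 and BAG3) beside 10.3% of all genes, and none was lower beside 0.747%. Here all 8 estimates were above 0, as were 74.5% of those of all genes. In the test for any difference among the 4 time points (moderated F), HSP90AA1 (adjusted p = 0.000881), BAG3 (adjusted p = 0.0148) and HSPD1 (adjusted p = 0.0156) passed, beside 21.1% of all genes. The 4 comparisons against 0h or 96h share tumors and are not independent of each other.

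**Figure D2:**
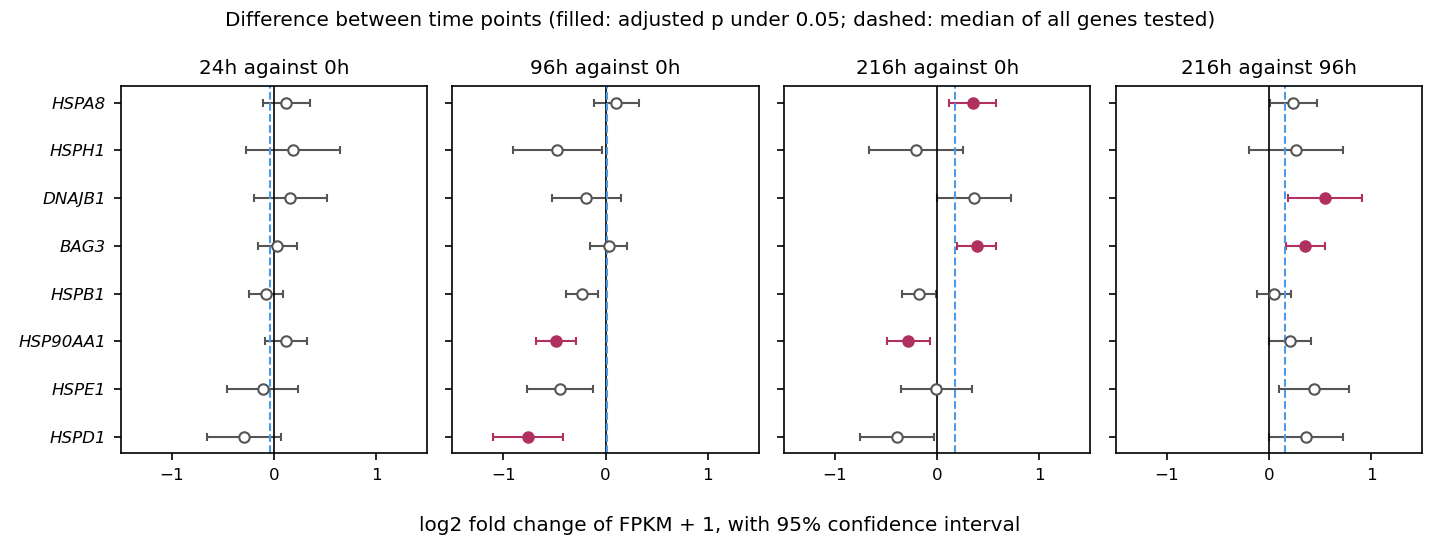
Points give the log2 fold change of FPKM + 1 of the 8 tested genes in 4 comparisons, with the 95% confidence interval as a line, filled where the limma adjusted p was under 0.05, and the dashed line is the median of all 11379 genes. At 96h against 0h HSP90AA1 (−0.49) and HSPD1 (−0.76) are filled, and at 216h the dashed line itself lies at 0.17.

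At 216h the values of most genes were higher: the median log2 difference of all tested genes was 0.17 against 0h and 0.16 against 96h, compared with 0.02 for 96h against 0h. The 13 mitochondrially encoded genes took 74.9% to 76.0% of the FPKM sum at 216h and 80.0% to 83.8% at 0h, and FPKM values of all other genes depend on that share. The median difference of the 8 genes at 216h was −0.09, below that of all genes, and at 96h it was −0.34. With quantile normalization the median of all genes moved to −0.03 and 51.4% rather than 84.6% of the called genes were higher at 216h against 0h (43.8% after median scaling and 69.4% without the mitochondrially encoded genes). At 216h against 96h these shares were 54.6% rather than 93.3%, 48.9% and 64.2%. At 216h against 0h with quantile normalization, BAG3 differed by 0.18 (adjusted p = 0.209), HSPA8 by 0.30 (adjusted p = 0.0318) and HSP90AA1 by −0.33 (adjusted p = 0.0281). At 216h against 96h quantile normalization, median scaling and rescaling without the mitochondrially encoded genes each left no member past the threshold. The rises of BAG3 and HSPA8 against 0h and of BAG3 and DNAJB1 against 96h thus depended on the scaling, and the fall of HSP90AA1 from 0h to 96h did not under the settings tried.

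A ratio of 2 genes within a tumor is untouched by any scaling of that tumor. HSP90AA1 per HSPA8, a pair chosen after the values had been seen and given with no test, was 0.483 ± 0.0193 (SD, n = 5) at 0h, with single tumors between 0.458 and 0.503. It was 0.320 ± 0.0192 (n = 5) at 96h and 0.314 ± 0.0381 (n = 4) at 216h, and the highest tumor of these 2 groups stood at 0.344. At 24h it ranged from 0.408 to 0.689. HSPD1 per HSPA8 likewise was 0.138 ± 0.0220 at 0h, 0.0746 ± 0.0108 at 96h and 0.0813 ± 0.00912 at 216h. At both late time points every tumor was thus below every 0h tumor in both ratios, and likewise in HSP90AA1 per BAG3. HSPA8, the denominator of both, was itself called higher at 216h against 0h. HSP90AA1 per HSPB1 was below all 0h tumors at 96h but overlapped them at 216h (0.914 to 1.22, compared with 1.08 to 1.18 at 0h). HSPD1 per HSPE1 overlapped 0h (0.482 to 0.754) at 96h (0.465 to 0.531) and at 216h (0.384 to 0.578).

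The number of genes at a value of 0 was not even over the tumors. It was 6000 to 6174 in the 5 tumors at 0h, 4767 to 4873 in the 5 tumors at 96h, 4832 to 6491 at 24h and 5179 to 6013 at 216h. The counts left a gap between 5179 and 5593, with all tumors at 0h above it and all at 96h below it, so that this property and the 96h time point cannot be told apart. With the number of genes at 0 as a covariate, HSP90AA1 (−0.68, adjusted p = 0.0402) and HSPD1 (−1.22, adjusted p = 0.0206) were lower at 96h against 0h. Since the counts at 0h and 96h did not overlap, that fit extrapolated and could not separate the count from the time point. Among the tumors above the gap, HSP90AA1 at 216h was −0.37 against 0h (adjusted p = 0.0408).

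**Figure D3:**
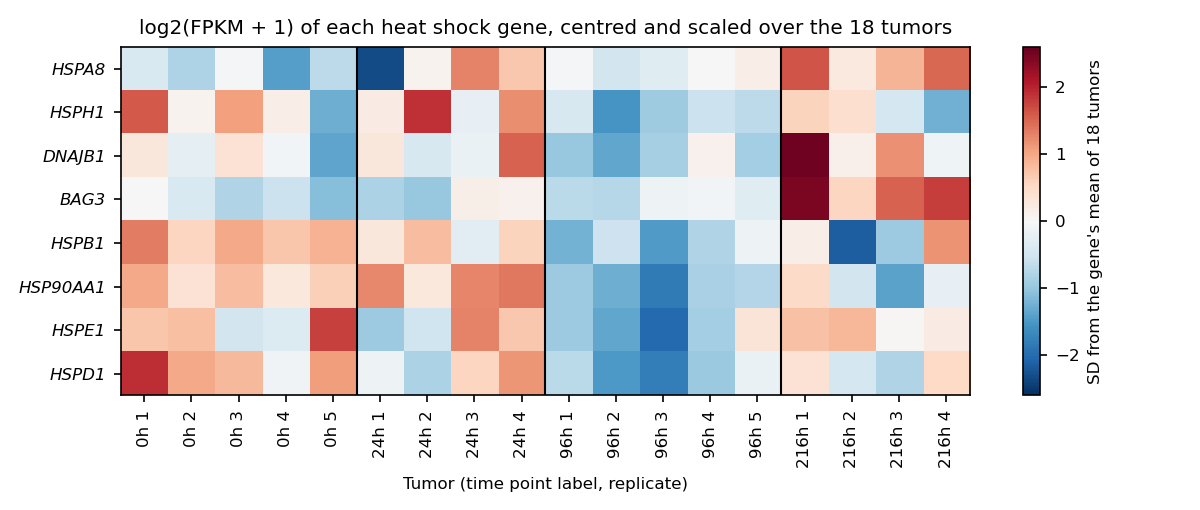
Rows are the 8 tested genes and columns the 18 tumors in order of time point, and the color gives the log2(FPKM + 1) of a gene in a tumor in SD from that gene's mean over all tumors. The mean over the 8 genes was below 0 in all 5 tumors at 96h, from −1.17 to −0.31, and reached its highest value, 1.13, in 216h replicate 1.

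Averaged over the genes after scaling each to its own SD over the 18 tumors, all 5 tumors at 96h were below 0 (−1.17 to −0.31), and the tumors at 0h ranged from −0.17 to 0.81. Within time points, after removing the group means, the Pearson r of the 28 pairs of genes over the 18 tumors had a median of 0.31. The closest pairs were HSP90AA1 with HSPD1 (0.79), HSPD1 with HSPE1 (0.67) and DNAJB1 with BAG3 (0.65). These values describe tumors that share a scaling, and no value for pairs of other genes stands beside them.

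The genes whose profile over the 18 tumors was most like the mean of the 8 were STIP1 (Pearson r = 0.83), ATF3 (0.82), P4HA1 (0.80), NUTF2 (0.78), AXL (0.77), GADD45B (0.76), YBX1 (0.75) and HSPA5 (0.75). STIP1 encodes the protein that hands clients from HSP70 to HSP90. It averaged 42.7 FPKM at 0h, 41.5 FPKM at 24h, 35.0 FPKM at 96h and 40.5 FPKM at 216h. HSPA5 encodes BiP, the HSP70 of the endoplasmic reticulum. The most opposed profiles were those of ANGEL1 (−0.69), DST (−0.68), RGS4 (−0.67) and PAQR6 (−0.64).

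HSF1, the upstream factor, had 46.9 ± 7.02 FPKM (SD, n = 5) at 0h, 40.8 ± 5.52 (n = 5) at 96h and 44.3 ± 5.40 (n = 4) at 216h, and no comparison passed the test. Its mRNA does not report the activity of the protein. Of the 9 tested genes for heat shock factors and their regulators, 3 were higher at 216h against 0h and none lower: VCP, a segregase that extracts ubiquitinated proteins (45.0 compared with 26.9 FPKM; log2 difference 0.72, limma adjusted p = 3.18e-05), HSF4 (0.76, adjusted p = 0.00912) and DEDD2 (0.36, adjusted p = 0.0418). VCP was also higher against 96h. SIRT1, a deacetylase that acts on HSF1, was at 1.95 compared with 1.3 FPKM and did not pass (adjusted p = 0.123). Of 23 tested genes known as HSF1 targets outside the 10, 4 were higher and 1 lower at 216h against 0h. Among them the collagen chaperone SERPINH1 (48.4 compared with 30.9 FPKM) and the HSP90 activator AHSA1 (81.6 compared with 61.7 FPKM) rose, and the J-domain gene DNAJB4 fell (107 compared with 175 FPKM). DEDD2 stands in both lists. These counts stand beside 19.7% of all genes higher and 3.6% lower.

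The other chaperone families were counted in the same way. No gene of these lists passed at 24h against 0h or at 96h against 24h, where 18 and 5 of all 11379 genes did. At 96h against 0h only HSPA5 did, beside 1.06% of all genes lower and 0.316% higher. It fell from 33.6 to 23.4 FPKM (log2 difference −0.50, limma adjusted p = 0.0193). At 216h against 96h HSPA5 rose again to 31.7 FPKM (adjusted p = 0.0174), together with DNAJB11, CALR and MANF, so that 4 of 12 genes of the endoplasmic reticulum were higher, beside 10.3% of all genes. DNAJB11 and MANF were also higher than at 0h. At 216h against 0h 1 of 15 genes of HSP90 and its co-chaperones was higher (AHSA1) and 1 lower (STUB1). Over all genes 19.7% were called higher and 3.6% lower in that comparison. STUB1, the ubiquitin ligase that works with HSP70 and HSP90, was at 37.4 compared with 67.8 FPKM. CDC37, which brings kinases to HSP90, and FKBP4 did not pass. Of 14 other J-domain genes DNAJB4 fell and none rose, and DNAJB5, DNAJA1 and DNAJC6 did not pass (adjusted p = 0.0502, 0.0617 and 0.156).

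The counts that follow at 216h against 0h stand beside 19.7% of all genes higher and 3.6% lower. Among 6 tested HSP70 and HSP110 genes outside the 10, HSPA4 was higher at 216h against 0h (11.7 compared with 8.09 FPKM), while HSPA4L, HSPA13 and HSPA12A did not pass. HSPA6, a strictly inducible HSP70 that was singled out after its values had been seen, averaged 0.452 ± 0.224 FPKM at 0h and 1.44 ± 0.338 FPKM at 216h and was not tested. Other genes share 56.7% of its 31-base stretches, so its level has the same limit as those of HSPA1A and HSPA1B. Among 7 exchange factors and BAG proteins BAG4 was lower at 216h (6.58 compared with 10.4 FPKM), and BAG1, HSPBP1 and BAG6 did not pass. In the cytosolic chaperonin and prefoldin, 2 of 14 were lower at 216h against 0h, CCT7 and PFDN6, with CCT5 and CCT3 not past the threshold. PFDN5 was higher against 96h, beside 10.3% of all genes. Of 10 other mitochondrial chaperones and proteases CLPX alone was called, higher at 216h (10.1 compared with 6.77 FPKM), and CLPB, TRAP1 and LONP1 were not. None of the 4 tested small heat shock proteins passed, CRYAB, HSPB8, HSPB7 and HSPB11, and 5 of the 9 on that list were under 1 FPKM in every tumor. DNAJC3 of the endoplasmic reticulum was at 3.33 compared with 3.35 FPKM.

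Another 3 lists moved with the 216h tumors in which BAG3 and HSPA8 were higher. Of 16 immediate early genes, which respond within minutes to growth factors, stress and handling, 11 were higher and 1 lower at 216h against 0h, beside 19.7% of all genes higher and 3.6% lower, led by NR4A1 (23.8 compared with 2.96 FPKM), EGR3, FOSB and EGR1. Their summed level was 92.6 to 122 FPKM at 0h, 89.8 to 132 at 24h, 99.3 to 124 at 96h and 170.0 to 414 at 216h. Of 12 fibroblast markers 9 were higher and 1 lower beside the same shares of all genes, among them COL3A1 (524 compared with 166 FPKM), COL1A1, DPT and POSTN, and their sum was 1441 to 2061 FPKM at 0h, 1017 to 1823 at 24h, 1184 to 2455 at 96h and 3849 to 4672 at 216h. None of the 12 was under 1 FPKM in all tumors.

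Of 12 tested leukocyte markers 8 were higher and 1 lower, again beside 19.7% and 3.6% of all genes, among them CSF1R, CD74, LAPTM5 and C1QB, with a sum of 73.0 to 115 FPKM at 0h, 70.7 to 153 at 24h, 90.3 to 118 at 96h and 164 to 263 at 216h. TYROBP and CD163 of that list were under 1 FPKM in every tumor. The part of these lists in the rises of BAG3, HSPA8 and DNAJB1 was not tested. How reads from mouse cells were treated is not given in the sources used here. None of the 3 lists had a called gene at 96h against 0h, where HSP90AA1 and HSPD1 were lower. Over all genes only 0.316% were called higher and 1.06% lower in that comparison. With so few calls, this cannot show that the lists were unchanged.

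**Figure D4:**
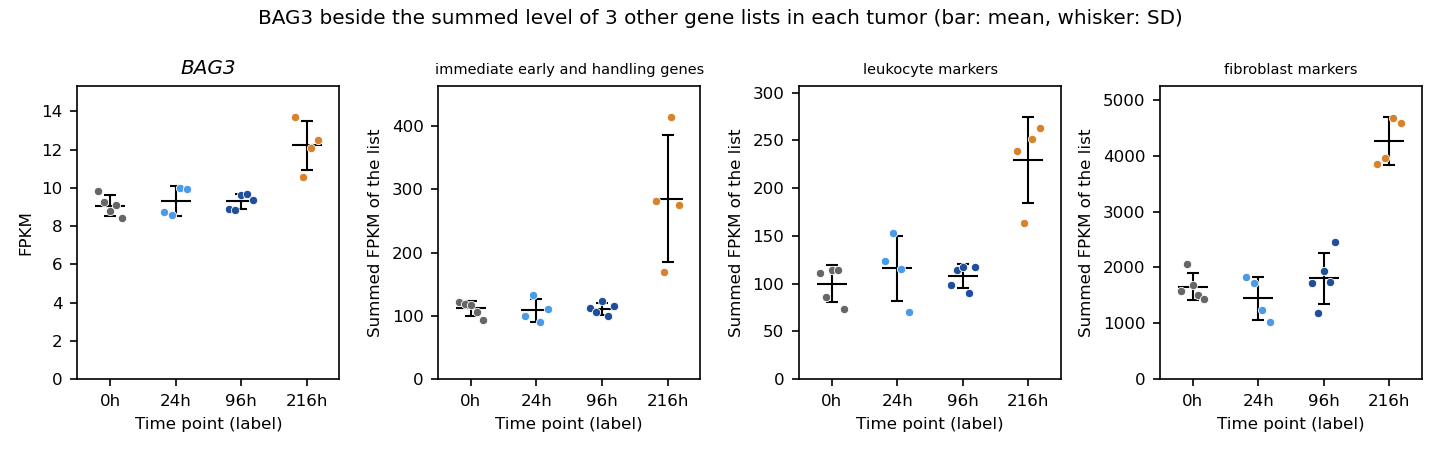
The first panel plots BAG3 in FPKM and the other 3 panels the summed FPKM of the immediate early, leukocyte and fibroblast lists in the 18 tumors by time point label, with the mean as a bar and the SD as a whisker on linear axes from 0. In all 4 panels every tumor at 216h lies above all other tumors, and the first 3 groups overlap.

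Markers of 3 further tissues were examined, and their counts at 216h against 0h stand beside 19.7% of all genes higher and 3.6% lower. Of 8 tested endothelial genes CDH5 was higher and EGFL7 lower at 216h against 0h, ROBO4 and TEK did not pass, and PECAM1 and EMCN were under 1 FPKM in every tumor. None of 11 tested skeletal muscle genes passed in any comparison, with TNNT3, ACTA1, TPM2 and CKM the nearest to it. The median log2 difference of the 11 genes was nevertheless 1.07 at 216h against 0h and 1.24 against 96h, and the summed level of all 15 listed genes was 72.1 to 172 FPKM at 0h, 65.3 to 94.9 at 24h, 63.8 to 106 at 96h and 62.7 to 226 at 216h. It was highest in 216h replicates 3 and 4 (183 and 226 FPKM), whereas the other tumors at 216h lay within the range of 0h or below it. Of 8 tested mesothelioma markers 3 were lower at 216h against 0h and 5 were not called. Those lower were KRT18 (76.2 compared with 191 FPKM), KRT8 (106 compared with 184 FPKM) and HMGA1 (71.6 compared with 104 FPKM). VIM, not called, was at 1291 compared with 1359 FPKM. At 96h against 0h KRT18 and KRT8 were already lower and VIM was higher, beside 1.06% of all genes lower and 0.316% higher. VIM was lower at 216h against 96h, beside 0.747% of all genes. WT1, PDPN, UPK1B and THBD of that list were under 1 FPKM in every tumor.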

How the data were processed

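Values of 18 tumors were read from 1 deposited table. Per the labels, libraries were exome-captured from total RNA, and the submitters' processing notes name STAR and GRCh38. The quantifier, strand setting and treatment of mouse reads are not given in the sources used here. The authors' unit was taken as FPKM from the values, whose sum per tumor was 907662 to 1256546. The read depth is unknown, so no counting interval was computed. Empty cells (4) were read as 0, and 266 gene identifiers have several rows. For a named or listed gene the row with the highest mean was used. All rows past the filter entered the fit, so counts and shares of all genes are over rows. Starts in the table are 1 base below GENCODE release 29 for the 10 genes and are printed from 1. No pair of tumors was identical.

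All 4 groups were fitted together with limma 3.58.1 in R 4.3.3 (eBayes with trend) on log2(FPKM + 1) for the 11379 rows with at least 1 FPKM in at least 4 tumors, with Benjamini-Hochberg adjustment over all of them and a threshold of 0.05. Fold changes on this scale understate those of low genes. Tumors are separate mice. The fit was tested on simulated data. The 10 genes and the lists were chosen with earlier results of these data known. Named beside the 10 and YAP1 were the 4 genes of each list with the smallest F p-value, and the 8 most and 4 least alike. Of the genes so chosen, 1 is not reported here. Alternatives were other filters, scalings, a pseudocount of 0.1, a fit without trend or of 2 groups, a covariate, summed HSPA1 genes and leaving out each tumor. Fits within tumors of like zero counts were added after seeing the data. Python 3 scripts searched GENCODE release 29 transcripts and their reverse complements for shared 31-base stretches, so overlap of genes on opposite strands counts as shared.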

Additional observations from a re-analysis of the deposited data

Results flagged for a closer look

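One of the 36 groups of tumors with unequal values, counting 9 genes at 4 time points, held a tumor far from the others. HSP90AA1 in 24h replicate 2 was at 228 FPKM, the nearest of the other tumors at 24h was at 275 FPKM, and the gap took up 0.873 of the range of the group. Chance alone would mark about 1.8 of 36 groups. Without this tumor the difference of 96h against 24h was −0.68 in place of −0.61.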

How the results depend on the processing

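No paired analysis was possible because each mouse stands in only 1 group and replicate numbers follow the order of deposit. FPKM without read counts leaves the depth of each tumor unknown. The fall of HSP90AA1 at 96h against 0h passed under the other filters, scalings, pseudocount and models and without any 1 tumor. Summing HSPA1A and HSPA1B could not change it, since neither entered the test. The cause of the changes below was not tested.

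Of the 8 genes, 0 in place of 1 passed at 96h against 24h with only the 2 groups fitted, with quantile normalization, without the variance trend and among tumors with fewer genes at 0. At 216h against 96h, 1 in place of 2 passed (BAG3) with only the 2 groups, without a filter and with a pseudocount of 0.1, and 0 passed with quantile normalization, median scaling, rescaling without mitochondrially encoded genes and among tumors with fewer genes at 0. At 216h against 0h, 1 in place of 3 passed without the trend (BAG3) and among tumors with more genes at 0 (HSP90AA1). With the number of genes at 0 as a covariate, 5 in place of 3 differed among the 4 time points. Leaving out 1 tumor gave 0 genes at 24h and 1 to 2 at 96h against 0h, 1 to 3 at 216h against 0h, 0 to 1 at 96h against 24h, 0 to 3 at 216h against 96h and 2 to 4 among the 4 time points.

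Over all genes, 18 calls at 24h against 0h became 0 with only the 2 groups, 32 at a filter of 5 FPKM and 1 among tumors with more genes at 0, and 7 to 25 without 1 tumor. The 157 at 96h against 0h became 40 with the covariate and 74 to 172 without 1 tumor. The 2656 at 216h against 0h became 1529 among tumors with more genes at 0 and 2048 to 2798 without 1 tumor. The 5 at 96h against 24h became 0 with only the 2 groups, 10 without a filter, 8 at 5 FPKM and without mitochondrially encoded genes, 3 with quantile normalization, without the trend and with the covariate, 1 among tumors with fewer genes at 0, and 2 to 8 without 1 tumor. The 1260 at 216h against 96h became 692 with quantile normalization, 657 with median scaling, 533 without mitochondrially encoded genes, 121 with the covariate, 21 among tumors with fewer genes at 0, and 708 to 1371 without 1 tumor.

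Differences that changed sign had not passed the test. HSPA8 at 96h against 24h was 0.069 with quantile normalization and 0.0064 without mitochondrially encoded genes, where BAG3 was 0.020. At 216h against 96h, HSPB1 was −0.091 with quantile normalization, −0.19 with median scaling and −0.12 without mitochondrially encoded genes, and median scaling gave −0.0057 for HSPA8 and −0.038 for HSP90AA1. With the covariate, HSPA8 was −0.028 at 24h and −0.29 at 96h against 0h, and BAG3 was −0.043 and −0.17. In the 24h against 0h comparison of tumors above the gap in zero counts, HSPA8 stood at −0.091 and BAG3 at −0.060. Without 1 tumor, HSPE1 at 216h against 0h ranged from −0.081 to 0.091, HSPA8 at 96h against 24h from −0.17 to 0.076, BAG3 there from −0.036 to 0.031, and HSPB1 at 216h against 96h from −0.018 to 0.13.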
